A study of Mus musculus with 6 samples.

Results

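The 32 interferon-stimulated genes described here were taken by gene symbol from a table of 25006 mouse genes counted in corneal epithelium, the layered cell sheet on the front of the eye. All 32 symbols had a row, and 31 passed the filter on low counts. Cxcl10 did not pass. Total RNA of epithelial sheets was sequenced from 3 libraries labelled EphA2 null, which are written null-labelled 1, 2 and 3, and from 3 wild type libraries. The product of Epha2 is a cell-surface kinase of the Eph family, activated by ephrins on adjacent cells. By its title, the series concerns cilia and autophagy in the cornea. The labels give no strain, age, sex or treatment, and no detail of how the null allele (EphA2-/-) was made. They do not say whether the libraries come from separate animals, so p-values measure the spread between these libraries, which may be technical.

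Interferons are secreted signals of antiviral defence. Type I and type III interferons bind their receptors and activate the kinases Jak1 and Tyk2, and these lead to the assembly of the transcription factor complex ISGF3, which holds Stat2 and Irf9. ISGF3 binds a short promoter element, the interferon-stimulated response element (ISRE), and switches on the genes considered here. Many of these genes are also kept at a low tonic level in surface epithelia without infection.

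Total counts ran from 15308013 to 27586942 per library. Levels are given as CPM, counts scaled to the TMM-normalised library size, in the order of library 1, 2 and 3 of each label. The sample titles carry a number, which null-labelled 2 and 3 share and which wild type 1 and 2 share. They also carry a letter, which is N for null-labelled 1 and 3 and wild type 1, R for wild type 2 and 3, and B for null-labelled 2. Null-labelled 2 and 3 and wild type 3 have higher title numbers, and null-labelled 1 and wild type 1 and 2 have lower ones. The labels do not explain the number or the letter. The number is a split along which 3154 of 12847 tested genes were called higher and 2586 lower (edgeR with genotype as a term, adjusted p under 0.05). This split was chosen because earlier results of these data showed that the libraries separate by the number. Its calls and p-values are therefore descriptions and not independent evidence of a difference. Epha2 itself was at 285, 653 and 578 CPM in the null-labelled libraries, against 298, 253 and 563 CPM in wild type, following the title number (log2 fold change 1.07 ± 0.11, SE, adjusted p = 0.00174 in edgeR) and not the label, so its level does not show the labelled genotype and every direction between genotypes rests on the label. The corneal keratin gene Krt12 was between 13064 and 16025 CPM in the 6 libraries, and the keratocyte genes Kera and Lum had 0 counts in all of them. All 7 listed keratocyte markers summed to between 0.4855 CPM in null-labelled 3 and 1.76 CPM in wild type 3. The 4 listed conjunctival markers (Muc5ac, Krt13, Krt4 and Spdef) were uneven. They summed to 5469, 5184 and 2832 CPM in the null-labelled libraries, against 4956, 4144 and 3197 CPM in wild type. By title number edgeR called 1 of these 4 lower and 0 higher.

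RefSeq windows of 250 bases before the gene start (GRCm38.p6) were found for 23 of the 32 genes. They were searched on both strands for the ISRE core, taken as GAAA, any 2 bases and GAAA again. It was present in 13 of the 23 genes, or 56.5%, against 3.46% of the 27025 genes with such windows. The GAS core, TTC and GAA with any 3 bases between, an element of interferon-gamma responses, was present in 3 of the 23, or 13.0%, against 8.13% of all genes. Stretches of the windows are shown for 7 genes that carry the results below, 5' to 3' on the strand of the gene, with the ISRE core in capitals and the rest in lower case. A core on the opposite strand reads TTTC, 2 bases and TTTC, and overlapping cores run together. The stretches are chr4:156200830-156200929 (minus strand) for Isg15, chr19:34640759-34640858 (plus) for Ifit1, chr19:34583362-34583461 (plus) for Ifit3, chr19:34607758-34607857 (plus) for Ifit3b, chr5:120777680-120777779 (minus) for Oas3, chr12:26456518-26456617 (minus) for Rsad2 and chr3:142620559-142620658 (plus) for Gbp2.
Isg15: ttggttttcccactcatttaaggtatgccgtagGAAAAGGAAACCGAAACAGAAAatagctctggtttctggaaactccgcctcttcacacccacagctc
Ifit1: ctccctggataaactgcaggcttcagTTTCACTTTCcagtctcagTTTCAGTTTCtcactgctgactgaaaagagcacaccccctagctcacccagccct
Ifit3: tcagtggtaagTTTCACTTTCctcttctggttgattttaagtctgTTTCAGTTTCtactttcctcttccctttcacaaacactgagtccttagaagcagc
Ifit3b: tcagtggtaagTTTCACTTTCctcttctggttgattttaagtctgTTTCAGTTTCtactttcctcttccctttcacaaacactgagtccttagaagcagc
Oas3: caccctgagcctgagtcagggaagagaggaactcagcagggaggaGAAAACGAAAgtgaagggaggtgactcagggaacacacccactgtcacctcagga
Rsad2: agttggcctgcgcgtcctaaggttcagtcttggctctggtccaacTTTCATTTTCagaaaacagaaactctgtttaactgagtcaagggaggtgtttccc
Gbp2: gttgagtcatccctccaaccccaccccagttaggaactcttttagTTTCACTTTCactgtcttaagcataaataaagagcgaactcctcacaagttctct
The stretches of Ifit3 and Ifit3b are identical at all 100 bases. In Isg15 the 3 overlapping cores form 1 run, and in Ifit1, Ifit3 and Ifit3b 2 cores stand apart. A match is a description of these letters and was not tied to binding by any measurement here.

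The genes differed widely in level. Per kilobase of annotated exon, Oasl1 (65.2 CPM per kb) and Isg15 (54.9 CPM per kb) had the highest mean levels over the 6 libraries, followed by Oasl2 (35.5) and Gbp2 (29.4). Mx1 (0.302 CPM per kb), Mx2 (0.341), Ifi44 (0.581) and Rsad2 (0.661) were the lowest of the tested members. Cxcl10, a chemokine that attracts T cells, had 3, 25 and 2 counts in the null-labelled libraries, against 1, 0 and 2 in wild type. Null-labelled 2 was thus the only library with more than 3 counts of Cxcl10.

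**Figure D1:**
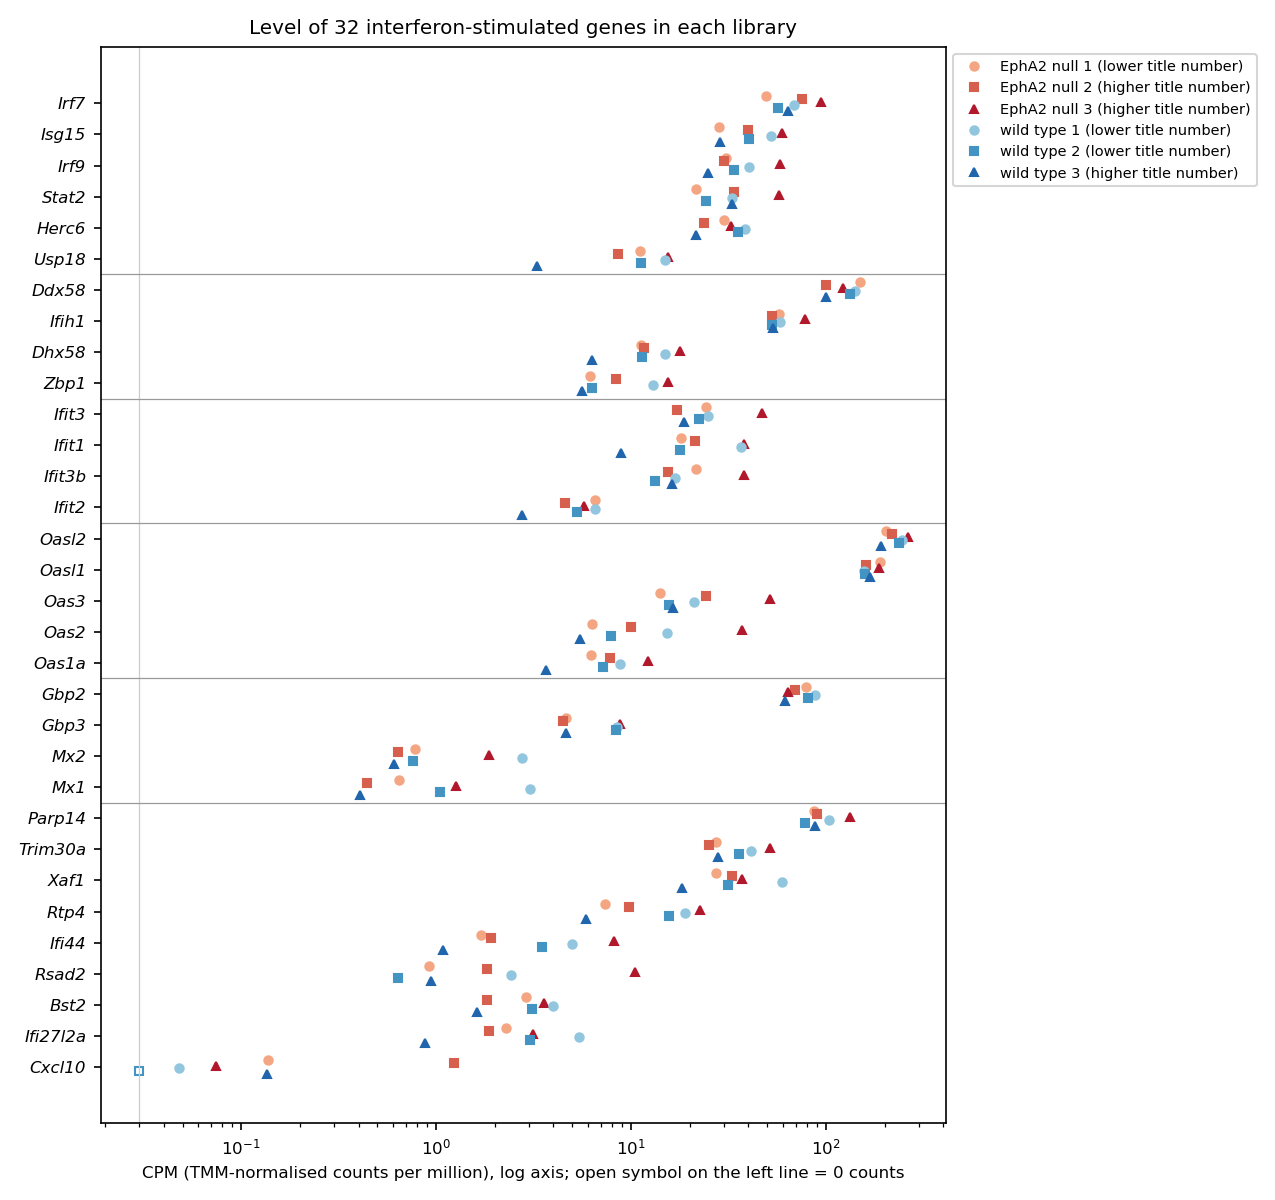
Level of each of the 32 genes in each library, in CPM on a log axis, 1 row per gene and 1 symbol per library, with horizontal lines between functional groups; red symbols are libraries labelled EphA2 null and blue symbols are wild type. Null-labelled 3 lies at the right in most rows and wild type 3 at the left, while Oasl1 differs by no more than 1.21-fold between any of the libraries.

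No member passed the test between the genotypes. Of the 31 tested members, edgeR's quasi-likelihood test called 0 higher and 0 lower at an adjusted p under 0.05, where it called 0.00778% of all 12847 tested genes higher and 0% lower. The adjusted p was 0.9996 for every member. At an unadjusted p under 0.05 there were also 0 members, against 0.467% of all tested genes higher and 0.716% lower. DESeq2 called 0 members as well, against 0.0218% of its genes higher and 0.00544% lower. With limma voom it was 0 members, against 0.00778% of all tested genes higher and 0% lower. DESeq2 gave 3 members an unadjusted p under 0.05, Rsad2, Ifit3b and Cxcl10, each with a higher value, against 0.381% of its genes higher and 0.511% lower. When title number range was added to the fit, edgeR again called 0 members, against 0.00778% of all tested genes higher and 0% lower. It also gave 0 members an unadjusted p under 0.05, against 1.67% of all tested genes higher and 2.2% lower. DESeq2 with that term called 0, against 0.0356% and 0.0645%. The median log2 fold change, null-labelled over wild type, was 0.20 over the members and 0.01 over all tested genes, with 20 of 31 members above 0, against 53.1% of all tested genes. Leaving out 1 library turned this direction: the median was -0.11 with 8 of 31 above 0 without null-labelled 3, and -0.09 with 14 of 31 without wild type 3, while without wild type 1 it was 0.39 with 29 of 31. With the title number term it was 0.16, with 27 of 31 above 0, against 49.8%. No member had its 3 null-labelled libraries all above or all below the wild type ones, which 1.71% and 2.02% of all tested genes did.

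The 3 largest positive fold changes were those of Rsad2, Oas2 and Oas3, and each of these genes was highest in null-labelled 3. Rsad2 (chr12:26442746-26456452, GRCm38) encodes viperin, an enzyme that makes a chain-terminating nucleotide. It was at 0.917, 1.82 and 10.5 CPM in the null-labelled libraries, against 2.41, 0.641 and 0.945 CPM in wild type. The groups overlap, and null-labelled 3 stands alone above the rest. The log2 fold change was 1.70 ± 0.93 (SE, n = 3 per group; edgeR adjusted p = 0.9996). It was 0.0093 without null-labelled 3 and 2.48 without wild type 1.

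Oas2 and Oas3 are 2'-5' oligoadenylate synthetases, which sense double-stranded RNA and activate RNase L. Oas3 was at 14.1, 24.1 and 51.5 CPM in the null-labelled libraries, against 21.1, 15.6 and 16.4 CPM in wild type. Oas2 was at 6.33, 9.99 and 36.9 CPM in the null-labelled libraries, against 15.2, 7.92 and 5.47 CPM in wild type. Null-labelled 1 is the lowest library for Oas3 and the second lowest for Oas2, and null-labelled 3 is the highest for both, so the groups overlap. The log2 fold changes were 0.76 ± 0.44 for Oas3 and 0.89 ± 0.68 for Oas2 (SE, edgeR adjusted p = 0.9996 for each), and they were 0.10 for Oas3 and -0.24 for Oas2 without null-labelled 3.

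The 3 largest negative fold changes were those of Mx1, Ifi27l2a and Mx2, again with overlapping groups. Mx1 and Mx2 encode dynamin-like GTPases that restrict viruses. Mx1 was at 0.642, 0.443 and 1.27 CPM in the null-labelled libraries, against 3.04, 1.05 and 0.405 CPM in wild type. Mx2 was at 0.780, 0.640 and 1.87 CPM in the null-labelled libraries, against 2.75, 0.757 and 0.608 CPM in wild type. Both were highest in wild type 1 and second in null-labelled 3. Ifi27l2a, which encodes a small hydrophobic protein, was at 2.29, 1.87 and 3.14 CPM in the null-labelled libraries, against 5.40, 3.03 and 0.878 CPM in wild type. The log2 fold changes were -0.94 ± 0.71 for Mx1, -0.33 ± 0.67 for Mx2 and -0.36 ± 0.57 for Ifi27l2a (SE, edgeR adjusted p = 0.9996 for each). Without wild type 1 they were 0.11, 0.69 and 0.31.

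**Figure D2:**
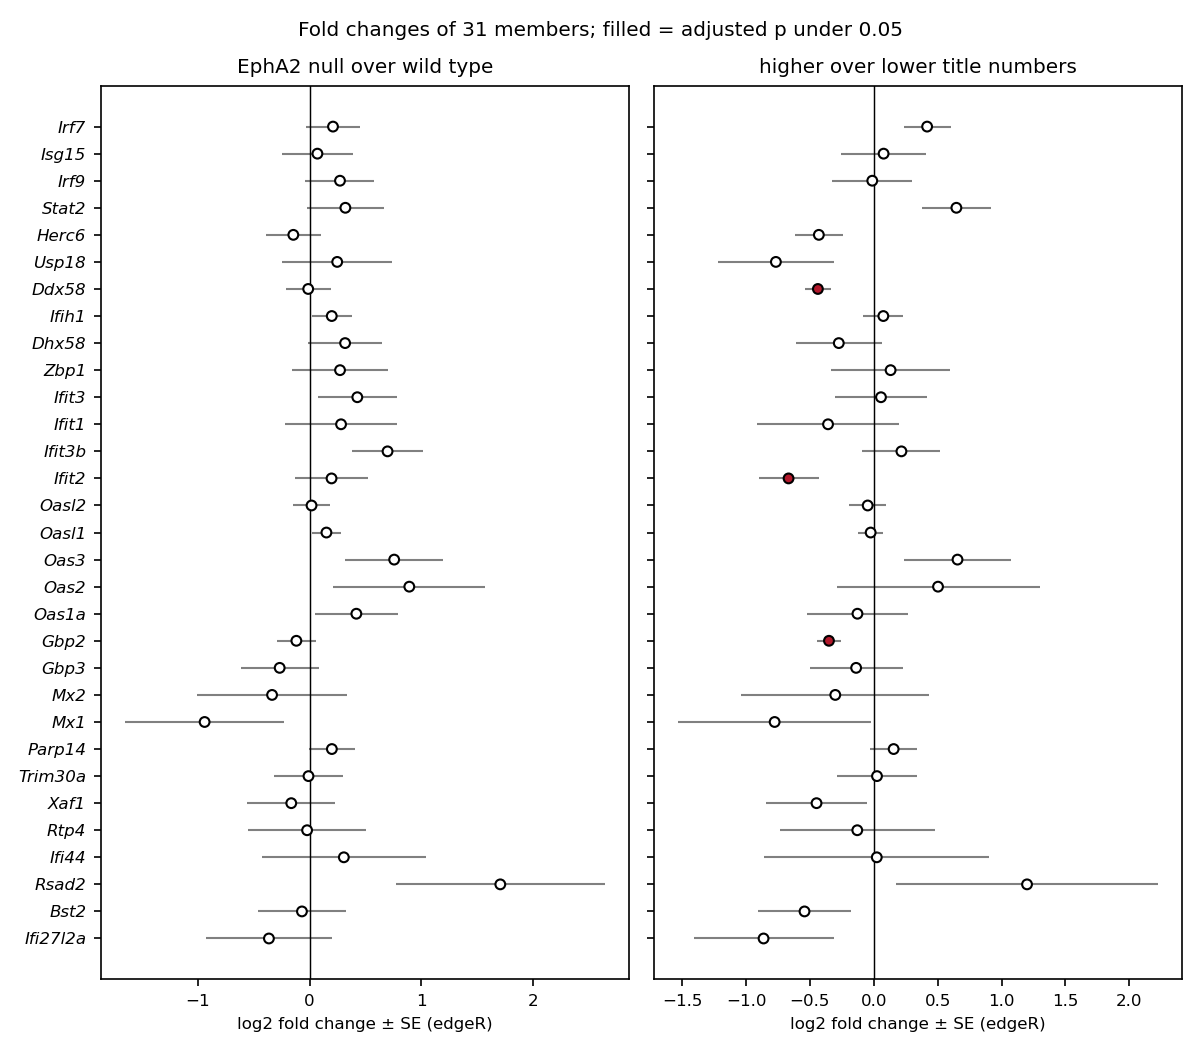
Log2 fold change with its SE from edgeR for the 31 tested members, null-labelled over wild type on the left and higher over lower title numbers on the right; filled points have an adjusted p under 0.05. No point is filled on the left, and Ddx58, Ifit2 and Gbp2 are filled on the right, all below 0.

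The title numbers, which separated much of the table, separated few of these genes. With genotype kept as a term, edgeR called 0 of 31 members higher and 3 lower in the libraries with higher title numbers, against 24.6% and 20.1% of all tested genes. Without wild type 3 it called 0 lower and 4 higher members. At an unadjusted p under 0.05 there were 1 higher and 4 lower, against 28.4% and 25.3%. The median log2 fold change of the members, higher over lower, was -0.05, with 13 of 31 above 0, against 49.4% of all tested genes, whose median was -0.01. Members whose 3 higher-numbered libraries all lay above the 3 lower-numbered ones numbered 1 (Stat2), and 2 lay below (Ddx58 and Gbp2), against 30.1% and 28.8% of all tested genes.

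Ddx58 (chr4:40203773-40239828) encodes RIG-I, the cytoplasmic sensor of viral RNA with free 5' triphosphates. It was at 100.1, 122 and 99.9 CPM in null-labelled 2 and 3 and wild type 3, against 149, 141 and 133 CPM in null-labelled 1 and wild type 1 and 2. The groups do not overlap, and the log2 fold change was -0.44 ± 0.10 (SE, n = 3 per group; edgeR adjusted p = 0.00994). Gbp2 (chr3:142620602-142638008), a guanylate-binding GTPase of defence against intracellular microbes, was at 69.5, 64.2 and 61.3 CPM in the same order of libraries, against 78.9, 88.1 and 81.2 CPM (log2 fold change -0.35 ± 0.10, adjusted p = 0.0198 in edgeR). Ifit2 (chr19:34550694-34576419), which binds RNA and limits viral translation, was at 4.58, 5.71 and 2.77 CPM, against 6.51, 6.51 and 5.30 CPM. Its groups overlap, and the log2 fold change of -0.67 ± 0.23 passed narrowly (adjusted p = 0.0465, edgeR), with DESeq2 at an adjusted p of 0.0506. Leaving out 1 library ended the call of each of these genes in some case: wild type 3 or null-labelled 1 for Ddx58 (adjusted p of 0.0591 and 0.100, edgeR), these or wild type 2 for Gbp2 (0.186, 0.0714 and 0.0510), and any library but null-labelled 3 for Ifit2.

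Stat2 and Irf7, both transcription factors of the response, had positive fold changes that did not pass after adjustment. Stat2 was at 33.6, 57.2 and 33.0 CPM in null-labelled 2 and 3 and wild type 3, against 21.5, 32.8 and 24.3 CPM in null-labelled 1 and wild type 1 and 2. Its log2 fold change was 0.65 ± 0.27 (SE, edgeR adjusted p = 0.0803; DESeq2 adjusted p = 0.0348). Irf7, which amplifies interferon production, had a log2 fold change of 0.42 ± 0.18 (edgeR adjusted p = 0.0944). Herc6, the mouse ligase that attaches Isg15, had a log2 fold change of -0.43 ± 0.19 (edgeR adjusted p = 0.0902). The other members named by size of change did not pass the test either. The log2 fold change was 1.20 ± 1.03 for Rsad2 and -0.86 ± 0.55 for Ifi27l2a (edgeR adjusted p of 0.364 and 0.226). It was -0.78 ± 0.76 for Mx1 and -0.77 ± 0.46 for Usp18, the protease that removes Isg15 from proteins (edgeR adjusted p of 0.425 and 0.199). For Oas3 it was 0.65 ± 0.42 (edgeR adjusted p = 0.228).

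What set the levels of these genes apart was the single library. Of the 31 tested members, 21 had their highest level in null-labelled 3 and 7 in wild type 1, against 22.5% and 6.49% of all tested genes, and the other 3 in null-labelled 1, against 25.7%. The lowest level was in wild type 3 for 19 members, against 16.4% of all tested genes. After centring each gene on its mean over the 6 libraries, the median of the members on the log2 scale was -0.20, -0.14 and 0.61 in the null-labelled libraries, against 0.36, -0.03 and -0.49 in wild type. The medians of all tested genes lay between -0.01 and 0.01 in every library. Relative to their own means, 29 of the 31 members were higher in null-labelled 3 and 27 in wild type 1, but 1 in wild type 3. The highest median was thus in a null-labelled library and the next in a wild type one, and the highest and the lowest were both in libraries with higher title numbers.

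**Figure D3:**
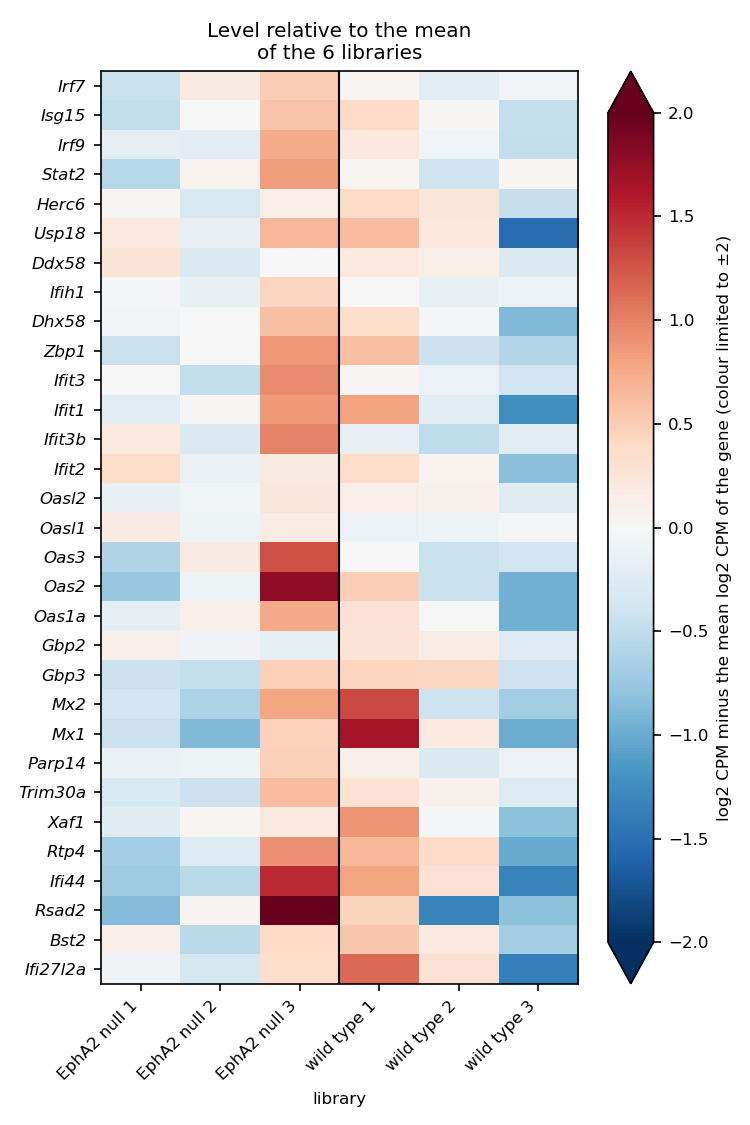
Level of the 31 tested members in each library, as log2 CPM minus the mean log2 CPM of the gene over the 6 libraries, with colours limited to 2 in either direction; the black line parts the null-labelled libraries from wild type. Columns for null-labelled 3 and wild type 1 are mostly red and that of wild type 3 is mostly blue.

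The spread between libraries was wide. The highest library exceeded the lowest by a median of 2.72-fold over the members, against 1.60-fold over all tested genes, and 22 members reached 2-fold, or 71.0%, against 26.6% of all tested genes. It was among the greatest for Rsad2 (16.3-fold), Ifi44 (7.60-fold) and Oas2 (6.75-fold). The spread of Mx1, which was highest in wild type 1, lay between those of Ifi44 and Oas2. Oasl1 (1.21-fold), Oasl2 (1.38-fold), Gbp2 (1.44-fold), Ifih1 (1.49-fold) and Ddx58 (1.49-fold) varied least.

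Libraries with the same label and the same title number also differed. Null-labelled 2 and 3 form 1 such pair and wild type 1 and 2 the other, with 1 library each, so that these ratios have no replicate check and are given as descriptions. The libraries of each pair differ in title letter, and null-labelled 3 and wild type 1 both carry N. Null-labelled 1 also carries N, and the centred median of the members there was -0.20. The letter was not tested. The ratio of null-labelled 3 to null-labelled 2 was at least 1.5 for 20 of the 31 tested members, against 5.86% of all tested genes, and at most the inverse of this for 0 members, against 6.39%. The median ratio was 1.76 over the members and 1.02 over all tested genes. The ratio of wild type 1 to wild type 2 was at least 1.5 for 8 members, against 3.21% of all tested genes, with a median of 1.27 over the members. In each pair 30 of the 31 members had a log2 ratio above 0, against 54.25% and 50.01% of all tested genes. The exception was Gbp2 in the null-labelled pair and Oasl1 in the wild type pair. 7 members passed 1.5-fold in both pairs, and the share of all tested genes that did so was not counted.

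**Figure D4:**
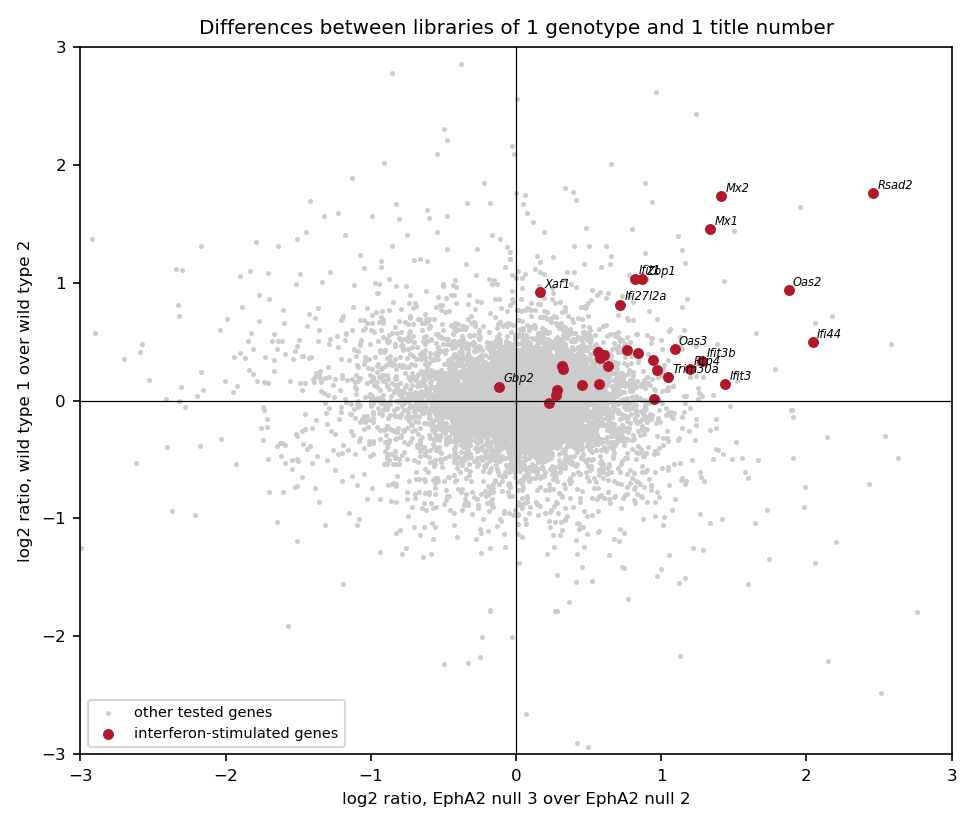
Log2 ratio of null-labelled 3 to null-labelled 2 on the horizontal axis and of wild type 1 to wild type 2 on the vertical axis, for all tested genes within 3 of 0 on either axis (grey) and the 31 members (red, the outlying ones named). The members lie at the upper right, apart from Gbp2 at the left of the vertical line and Oasl1 just under the horizontal one.

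By role, 5 of the 6 genes of ISGF3, feedback and the Isg15 pathway were highest in null-labelled 3, against 22.5% of all tested genes. Irf9, the DNA-binding part of ISGF3, was at 30.9, 29.8 and 58.4 CPM in the null-labelled libraries, against 40.3, 33.6 and 24.8 CPM in wild type. Isg15, the ubiquitin-like protein that is joined to other proteins in this response, was at 28.3, 39.8 and 59.5 CPM in the null-labelled libraries, against 52.1, 40.5 and 28.8 CPM in wild type. Both were highest in null-labelled 3 and second in wild type 1, and their groups overlap. Usp18 was at 11.1, 8.61 and 15.5 CPM in the null-labelled libraries, against 14.9, 11.2 and 3.31 CPM in wild type, with wild type 3 far below the other 5. Irf7 was at 49.1, 75.4 and 94.3 CPM in the null-labelled libraries, against 68.4, 56.7 and 64.2 CPM in wild type. Herc6 departed from the group, with 30.1, 23.7 and 32.5 CPM in the null-labelled libraries, against 38.6, 35.2 and 21.5 CPM in wild type, highest in wild type 1.

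The sensors fell into an even and an uneven pair. Ifih1 encodes MDA5, the sensor of long double-stranded RNA, and was at 57.5, 52.8 and 78.5 CPM in the null-labelled libraries, against 58.2, 52.8 and 53.6 CPM in wild type. Like Ddx58, it stayed within 1.49-fold. Dhx58, or LGP2, a regulator of both, was at 11.2, 11.7 and 17.8 CPM in the null-labelled libraries, against 14.9, 11.4 and 6.28 CPM in wild type. Zbp1, a sensor of Z-form nucleic acids that can start necroptosis, was at 6.19, 8.41 and 15.5 CPM in the null-labelled libraries, against 12.9, 6.29 and 5.60 CPM in wild type. These last genes had their lowest level in wild type 3 and their highest in null-labelled 3.

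The Ifit genes, a cluster on chromosome 19 whose products bind foreign RNA, differed in pattern. Ifit2, described above, was about equally high in null-labelled 1 and wild type 1 and lower in null-labelled 3. Ifit1 (chr19:34640871-34650009, GRCm38) was at 17.98, 21.4 and 37.8 CPM in the null-labelled libraries, against 36.6, 17.8 and 8.91 CPM in wild type, so that null-labelled 3 and wild type 1 were alike. Ifit3 (chr19:34583531-34588731) was at 24.1, 17.3 and 47.0 CPM in the null-labelled libraries, against 24.7, 22.4 and 18.6 CPM in wild type. Its near copy Ifit3b (chr19:34607970-34613401) was at 21.6, 15.5 and 37.9 CPM in the null-labelled libraries, against 16.8, 13.3 and 16.2 CPM in wild type. For these near copies only null-labelled 3 stood out. They share 51.2% of the 50-base words of Ifit3, and the split of reads between them is uncertain because the counting rule is not given in the sources used here. The ratio of null-labelled 3 to null-labelled 2 was 2.72 for Ifit3, with a 95% interval of 2.42 to 3.07, and 1.77 for Ifit1, with one of 1.58 to 1.98. These exact intervals cover counting error only.

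The Oas genes on chromosome 5 ranged from steady to the most variable. Oasl2 was at 202.5, 217 and 263 CPM in the null-labelled libraries, against 246, 238 and 190.5 CPM in wild type. Oasl1, which in mouse restrains Irf7 translation, was at 189.9, 159.8 and 187 CPM in the null-labelled libraries, against 157, 159 and 167 CPM in wild type. These abundant members hold close to level, unlike Oas2 and Oas3 above. Oas1a was at 6.24, 7.82 and 12.2 CPM in the null-labelled libraries, against 8.78, 7.17 and 3.65 CPM in wild type, and shares 57.6% of its 50-base words with Oas1g, so its count is uncertain too.

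Among the remaining effectors, Ifi44 (1.70, 1.92 and 8.22 CPM in the null-labelled libraries, against 4.97, 3.50 and 1.08 CPM in wild type) followed the common pattern. So did Rtp4, a receptor transporter protein gene, with 7.38, 9.79 and 22.6 CPM in the null-labelled libraries, against 18.8, 15.6 and 5.87 CPM in wild type. Both were highest in null-labelled 3, second in wild type 1 and lowest in wild type 3. Trim30a, a regulator of inflammatory signalling, was at 27.2, 25.1 and 51.9 CPM in the null-labelled libraries, against 41.2, 35.9 and 27.8 CPM in wild type. Parp14, an ADP-ribosyltransferase, was at 86.8, 89.5 and 132 CPM in the null-labelled libraries, against 103, 77.8 and 87.6 CPM in wild type. Xaf1, a pro-apoptotic gene, differed in order, with 27.3, 33.1 and 37.2 CPM in the null-labelled libraries, against 59.5, 31.4 and 18.2 CPM in wild type, and wild type 1 was the highest. Bst2, or tetherin, which holds budding virions at the cell surface, was at 2.89, 1.82 and 3.58 CPM in the null-labelled libraries, against 3.96, 3.09 and 1.62 CPM in wild type. Gbp3, a guanylate-binding GTPase, was at 4.63, 4.48 and 8.74 CPM in the null-labelled libraries, against 8.44, 8.39 and 4.66 CPM in wild type, a split into 3 higher and 3 lower libraries that follows neither label nor title number.

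The genotype difference had opposite signs in the 2 ranges of title numbers. Within the lower numbers, null-labelled 1 against wild type 1 and 2, the median log2 difference of the members was -0.34, with 6 of 31 above 0. Within the higher numbers, null-labelled 2 and 3 against wild type 3, it was 0.76, with 31 of 31 above 0. Of all tested genes, 50.7% and 51.75% were above 0 in these comparisons. Each rests on 1 library in 1 arm. The interaction of genotype and title number range, with 2 residual degrees of freedom in edgeR, passed for 0 members and 0 of all tested genes at an adjusted p under 0.05. At an unadjusted p under 0.05 it was above 0 for 16 of 31 members, against 3.43% of all tested genes, and below 0 for 0 members, against 1.28%.

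The 115 further genes of the pathway comprised interferons, receptors, signalling factors, sensors, other induced genes and antigen presentation. Of these, 94 were tested, and edgeR called 0 between the genotypes, also at an unadjusted p under 0.05. With the title numbers, 15 of the 94 were higher and 19 lower, where 24.6% and 20.1% of all tested genes were. Of 9 interferon genes, 4 (Ifnb1, Ifna1, Ifna4 and Ifnl2) had 0 counts in every library, where the limit that a count of 0 allows was between 0.112 and 0.203 CPM per library. The summed level of the 9 was at most 0.541 CPM, in null-labelled 2, where Ifne, an epithelial interferon, had 7 counts. No other interferon gene had more than 3 counts in any library, and the sum in null-labelled 3 was 0.0747 CPM.

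The 6 receptor genes summed to between 227 and 239 CPM in every library. Ifnar1, a chain of the type I receptor, was at 34.4, 30.0 and 33.1 CPM in the null-labelled libraries, against 34.4, 28.5 and 35.2 CPM in wild type. Ifnlr1, the specific chain of the type III receptor, was at 16.7, 17.6 and 26.9 CPM in the null-labelled libraries, against 17.2, 14.2 and 21.4 CPM in wild type. Among the signalling factors, Stat3 and Irf2 followed the title numbers, with log2 fold changes of 0.91 ± 0.14 and 0.69 ± 0.11 (SE, edgeR adjusted p of 0.00257 and 0.00320). Tlr3, the endosomal sensor of double-stranded RNA, was lower by title number, with -0.49 ± 0.09 (edgeR adjusted p = 0.00425), as was Tmem173, or STING, with -1.47 ± 0.23 (edgeR adjusted p = 0.00273). Socs3, a feedback inhibitor of cytokine receptors, was at 8.53, 16.4 and 3.25 CPM in the null-labelled libraries, against 6.27, 2.85 and 3.38 CPM in wild type, and was highest in null-labelled 2, like Cxcl10.

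Of 37 other interferon-induced genes, 17 were highest in null-labelled 3 and 8 in wild type 1, against 22.5% and 6.49% of all tested genes. The lowest level was in wild type 3 for 21 of them, against 16.4%. Among the 37, Cmpk2, the neighbour of Rsad2 and named after its values were seen, was at 0.642, 1.23 and 5.90 CPM in the null-labelled libraries, against 1.69, 0.990 and 1.15 CPM in wild type. Ifitm1 and Ifitm3, membrane proteins that block virus entry, were lower in the libraries with higher title numbers, with log2 fold changes of -0.54 ± 0.14 and -0.91 ± 0.16 (SE, edgeR adjusted p of 0.0148 and 0.00368). Of 15 genes of MHC class I presentation, 3 were highest in null-labelled 3 and 6 in wild type 1, against 22.5% and 6.49% of all tested genes. B2m, the light chain of MHC class I, was at 83.0, 56.3 and 67.2 CPM in the null-labelled libraries, against 170.8, 73.2 and 33.1 CPM in wild type.

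Leukocytes express many of these genes, and in bulk tissue fewer cells of a type cannot be told apart from less RNA per cell. The 13 leukocyte markers in the table, of 14 listed, summed to between 32.7 and 40.1 CPM in the null-labelled libraries and between 37.3 and 41.9 CPM in wild type, most of it Cd68 and Cd52. Without these, a choice made after the values were seen, the 11 others summed to 9.31, 1.77 and 1.76 CPM in the null-labelled libraries, against 10.9, 7.75 and 2.03 CPM in wild type. The markers left out differed from most others by title number. Cd52 was higher with higher title numbers (log2 fold change 1.22, DESeq2 adjusted p = 8.5e-06), and Cd68 was near level (-0.09, DESeq2 adjusted p = 0.654). Of the 8 tested leukocyte markers, edgeR called 1 higher and 6 lower by title number. Cd74 and the 3 class II genes of antigen-presenting cells summed to 30.1, 6.15 and 3.44 CPM in the null-labelled libraries, against 39.8, 22.5 and 8.10 CPM in wild type. With Cd207 and Itgax, the other listed markers of such cells, the sums were 31.3, 8.12 and 4.52 CPM in the null-labelled libraries. In wild type they were 41.7, 23.8 and 9.66 CPM. Itgax itself was not called by title number (log2 fold change 0.19, DESeq2 adjusted p = 0.696). Of the 4 listed plasmacytoid markers, Siglech had at most 0.145 CPM in any library. All 4, which include the member Bst2, summed to 23.5, 21.4 and 28.0 CPM in the null-labelled libraries. In wild type they summed to 21.1, 23.65 and 24.3 CPM. The sums of the 11 leukocyte markers and of Cd74 with class II genes were low in null-labelled 2 and 3 and wild type 3. Those of all 13 leukocyte markers and of the plasmacytoid markers did not separate by title number. In null-labelled 3 the 11-marker and class II sums were low and the interferon-stimulated genes highest, and in wild type 1 both were high. The part of leukocytes in these levels was not tested in any library.

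**Figure D5:**
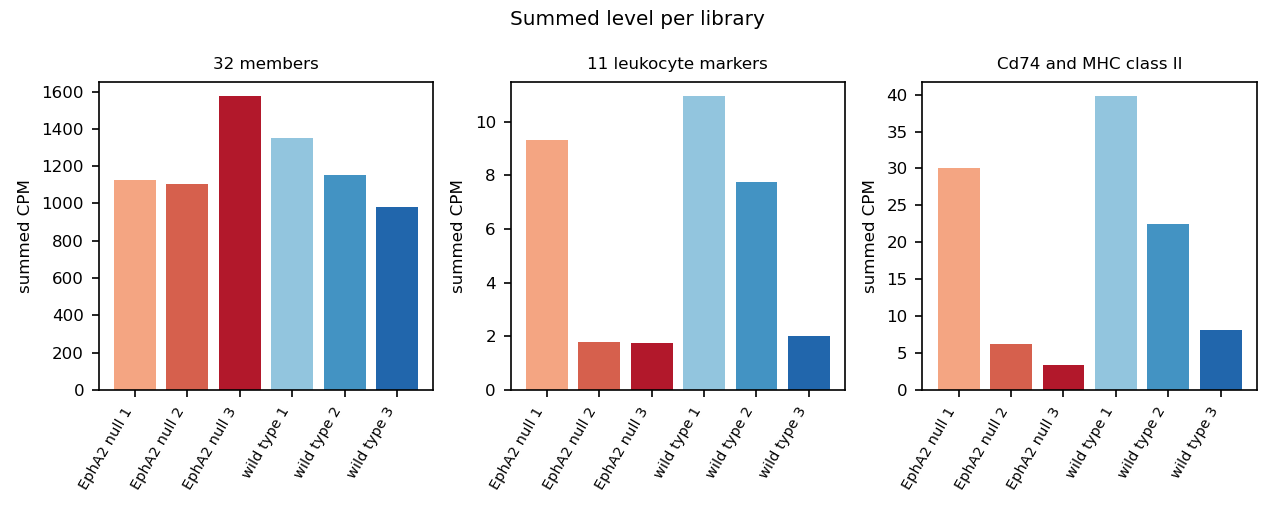
Summed CPM of the 32 members, of 11 leukocyte markers and of Cd74 with MHC class II genes, 1 bar per library, with null-labelled libraries in red and wild type in blue. The leukocyte markers Cd68 and Cd52 were left out after the values were seen, and the sum with them is not drawn. The members sum to between 982 and 1575 CPM with the highest bar in null-labelled 3. The 11 leukocyte markers sum to between 1.76 and 10.95 CPM and Cd74 with class II genes to between 3.44 and 39.8 CPM. Both have the highest bar in wild type 1. Cd74 with class II genes has the lowest in null-labelled 3. The 11 leukocyte markers are about equally low in null-labelled 2 (1.77 CPM) and null-labelled 3 (1.76 CPM).

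The genes with the ISRE core in the window shown above differed more between the null-labelled libraries of 1 title number. The ratio of null-labelled 3 to null-labelled 2 had a median of 1.96 over the 12 tested genes with the core, 10 of them at 1.5 or more. Over the 10 tested genes whose window held no such core it was 1.25, with 2 at 1.5 or more. In the wild type pair the medians were 1.27 and 1.15. These are descriptions over small groups, without a test, and the absence of these letters from a window says nothing of other response elements.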

How the data were processed

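The series has 1 table of raw counts per gene for 6 libraries of mouse corneal epithelium. The deposited values are whole-number counts per Ensembl gene. What the authors did to make them (aligner, counting rule, strand setting, build, annotation) is not given in the sources used here. Columns were matched to samples by title, and 0 columns of other samples were present. Symbols came from GENCODE M21 (GRCm38), which was not checked against the annotation used for counting, and promoter sequences from RefSeq (GRCm38.p6). Every pair of libraries differed by more than sampling noise.

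Counts were filtered with filterByExpr (12847 genes kept), normalised with TMM and tested with edgeR 4.0.16 (glmQLFit, glmQLFTest) in R 4.3.3, with Benjamini-Hochberg adjustment over all tested genes and a threshold of 0.05. The genotype fit had genotype as its only term, the title number fit genotype and title number range, and a further fit their interaction. The SE is the log2 fold change divided by the square root of F. DESeq2 1.42.0 and limma 3.58.1 (voom) were alternatives, with other factors, other filters, each library left out and samples of 1 title number summed. Log2 differences between single libraries used a prior count of 2. Counting intervals are at 95% and the limit for a count of 0 is 3 counts. The edgeR step was tested on simulated data. Shared 50-base words were counted between GENCODE transcripts. Members with an unadjusted p under 0.05, and the 3 largest and 3 smallest fold changes of each fit at a mean of at least 1 CPM, get full statistics. The members, the lists and the title number split were chosen with earlier results of these data known, and the library pairs and promoter split after the values were seen.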

Additional observations from a re-analysis of the deposited data

Results flagged for a closer look

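For 19 of the 31 tested members the genotype difference ran in opposite directions in the 2 ranges of title numbers. In these genes null-labelled 1 lay below wild type 1 and 2, and null-labelled 2 and 3 lay above wild type 3. The same held for 11.6% of all tested genes, and the reverse for 0 members and 10.6% of all tested genes. The interaction of genotype and title number range did not pass for any member (edgeR adjusted p of at least 0.999), with 1 library in 1 arm of each range.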

How the results depend on the processing

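Between the genotypes, 0 members were called under every alternative run: RLE factors, no filter, a mean of at least 1 CPM, DESeq2, limma voom, the title number term, samples of 1 title number summed and each library left out. The median log2 fold change ran from -0.11 without null-labelled 3 and -0.09 without wild type 3 to 0.39 without wild type 1. It was 0.16 with the title number term. For single members, it was 0.10 for Ifi27l2a with that term, 0.11 for Mx1, 0.31 for Ifi27l2a and 0.69 for Mx2 without wild type 1, and -0.24 for Oas2 without null-labelled 3, each opposite in sign to the value with all libraries. With a library left out, Mx1 ran from -1.48 to 0.11, Ifi27l2a from -0.80 to 0.31, Mx2 from -0.97 to 0.69 and Oas2 from -0.24 to 1.41.

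By title number, 3 members were called with all libraries, 9 with no filter, and between 1 and 7 with a library left out: 1 without wild type 2 or null-labelled 1, and 7 without null-labelled 3. The number of all tested genes called also changed between runs and is given below for some of them only. These counts are therefore not read as a result about the members. The direction of the calls also turned. With all libraries 0 of the 3 were higher (5740 of 12847 genes called), against 4 of 4 without wild type 3 (3702 of 13048), 2 of 4 without wild type 1 (5328 of 13075) and 3 of 9 with no filter (6289 of 18389). The median ran from -0.79 without null-labelled 1 to 0.44 without wild type 3. Without wild type 3 the log2 fold change was 0.12 for Ifi27l2a, 0.44 for Mx1 and 0.12 for Usp18, and without null-labelled 1 it was -0.17 for Oas3 and -0.73 for Rsad2, all reversed. With a library left out these ran from -2.27 (Ifi27l2a), -2.34 (Mx1) and -1.99 (Usp18), and up to 1.42 (Oas3) and 2.74 (Rsad2). Ddx58 lost its call without wild type 3 (adjusted p = 0.0591, edgeR) and without null-labelled 1 (0.100). Gbp2 lost its call without wild type 2, wild type 3 or null-labelled 1, and Ifit2 under 8 alternatives. The cause was not tested. The count of members highest in null-labelled 3 was 18 by total counts and between 21 and 26 with another library left out; that of members lowest in wild type 3 was between 19 and 20. No paired analysis by replicate number was possible because the labels give no replicate numbers; the fit with a title number term compared the genotypes within each range.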
